A study of Zea mays with 72 samples.

Results

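The genes Igl (NCBI Gene 100273163), igl1 (541855) and AAMT1 (100500707) were followed as the indole and methyl anthranilate volatile genes of maize. They were chosen by symbol, with igl1 found through a synonym in the reference table, and are 3 of 32235 genes with values. All 3 passed the filter on low counts, which kept 25558 genes.

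Igl encodes an indole-3-glycerol phosphate lyase, which splits indole-3-glycerol phosphate and sets indole free as a volatile. AAMT1 encodes an anthranilic acid methyltransferase, which joins a methyl group to anthranilate, an earlier intermediate of the tryptophan pathway, and so makes the volatile methyl anthranilate. Maize leaves attacked by caterpillars are known to release both compounds. No role is annotated for igl1 in the sources used here. It lies directly beside Igl on chromosome 1 in the order of genes in the reference table, with 0 genes between them, while AAMT1 lies on chromosome 9.

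RNA was sequenced from whole detached leaves of seedlings of the inbred line B73, in 12 groups of 6 biological replicates. In each of leaf 4, a mature leaf, and of leaves 5 and 6, which were still immature, the groups were (Z)-3-hexenyl acetate (HAC) for 30 min, HAC for 2 h, ZmPep3 for 2 h, and control. HAC is a volatile of damaged green leaves and was given through the air from dispensers, while ZmPep3, an elicitor peptide of maize, was added to the water at about 1 µM. By its title, the study concerns the sensing of volatiles by leaves of different maturity. All leaves, controls included, had been cut from the seedling and had stood in water for at least 2 h before treatment, and leaf 4 had also lost its sheath. Each leaf had a single control group that served its 3 treatments, and no sampling time for the controls is given in the labels.

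Library totals ran from 26212027 to 31052273 counts. Of 6 entries for photosynthesis genes, ppdk1, mdh6, ssu1, me3 and the pep1 gene 542372 reached at least 212 FPKM (fragments scaled for gene length and library depth) in every library, and a further pep1 entry stayed at or below 5.34 FPKM. In control leaves 4, 5 and 6, ssu1 averaged 3555, 10746 and 12639 FPKM, pep1 (542372) 951, 2888 and 3282 FPKM, and me3 848, 1183 and 1890 FPKM. The other way, ppdk1 averaged 3192, 2902 and 2236 FPKM and mdh6 936, 974 and 694 FPKM, both lowest in leaf 6. The ligule genes lg1 and lg2 averaged 0.06, 0.19 and 1.90 FPKM and 2.14, 2.79 and 5.01 FPKM in the same controls, and lg4 did not pass 0.04 FPKM in any library. The part of these shifts in the comparisons between leaves was not tested. By contrast, the meristem gene kn1 and the root gene rtcs1 stayed at or below 0.23 and 0.09 FPKM. Some libraries stood apart from their groups. Leaf 6 control libraries 6 and 5 had the largest and the next largest distance from their group median among 72 libraries (root mean square of 0.72 and 0.71 on the log2 scale), and leaf 5 ZmPep3 library 1 followed with 0.70. Leaf 4 HAC 30 min libraries 5 and 6 lay at 0.54 and 0.57, against at most 0.46 for the other 4 of that group. Calls of Igl, igl1 and AAMT1 that changed without these libraries are given with both values. Whether a lower count in whole leaves reflects fewer cells of a type or less RNA per cell cannot be told apart.

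Counts of Igl were not whole in 72 of 72 libraries and those of igl1 in 67, since the counting program divides reads between similar genes. The level of each, and a part of any change, may therefore belong to another copy. AAMT1 had a count that was not whole in 1 library.

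In controls, leaf 6 held about 10-fold less Igl than leaves 4 and 5, and AAMT1 showed no called difference between leaves. Igl in controls ran from 99.2 to 138 CPM (counts scaled by library size and TMM) in leaf 4, with a median of 126, and from 89.1 to 137 CPM in leaf 5, with a median of 116. In leaf 6 it had 13.8, 14.4, 17.5, 17.1, 1.04 and 5.70 CPM in libraries 1 to 6. All leaf 6 controls lay below all controls of the older leaves, and the low values at the end are those of libraries 5 and 6. The log2 difference in control level was -3.39 ± 0.28 (SE) for leaf 6 over leaf 4 and -3.29 ± 0.28 for leaf 6 over leaf 5 (edgeR's quasi-likelihood test, Benjamini-Hochberg adjusted p = 2.54e-17 and 1.30e-15). Without libraries 5 and 6 they were -2.95 and -2.85. These comparisons called 70.5% and 45% of all genes, so a difference between leaves was common. In comparisons with leaf 4, leaf age and the loss of its sheath cannot be told apart. Leaf 5 over leaf 4 gave -0.10 ± 0.25 for Igl (adjusted p = 0.75).

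AAMT1 was low in all controls, with 2.6 to 12.0 CPM in leaf 4 (median 3.9), 3.9 to 9.8 CPM in leaf 5 (median 8.0) and 4.0 to 9.2 CPM in leaf 6 (median 7.7). The 3 ranges overlapped, and the log2 differences ran from -0.05 to 0.44 with adjusted p of at least 0.18 by edgeR's quasi-likelihood test. The sign of leaf 6 over leaf 5 flipped with DESeq2 size factors. At 30 min of HAC the level of AAMT1 was 0.63 ± 0.27 higher in leaf 6 than in leaf 5 (adjusted p = 0.048), a call lost under either other filter on low counts. The level of igl1 was higher in leaf 5 controls than in leaf 4 controls by 0.47 ± 0.18 on the log2 scale (adjusted p = 0.019 by the same test), in a comparison that called 55.8% of genes. Leaf 6 over leaf 4 gave 0.21 ± 0.18 for igl1 in controls (adjusted p = 0.28), and 0.41 without libraries 5 and 6 (adjusted p = 0.033).

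**Figure D1:**
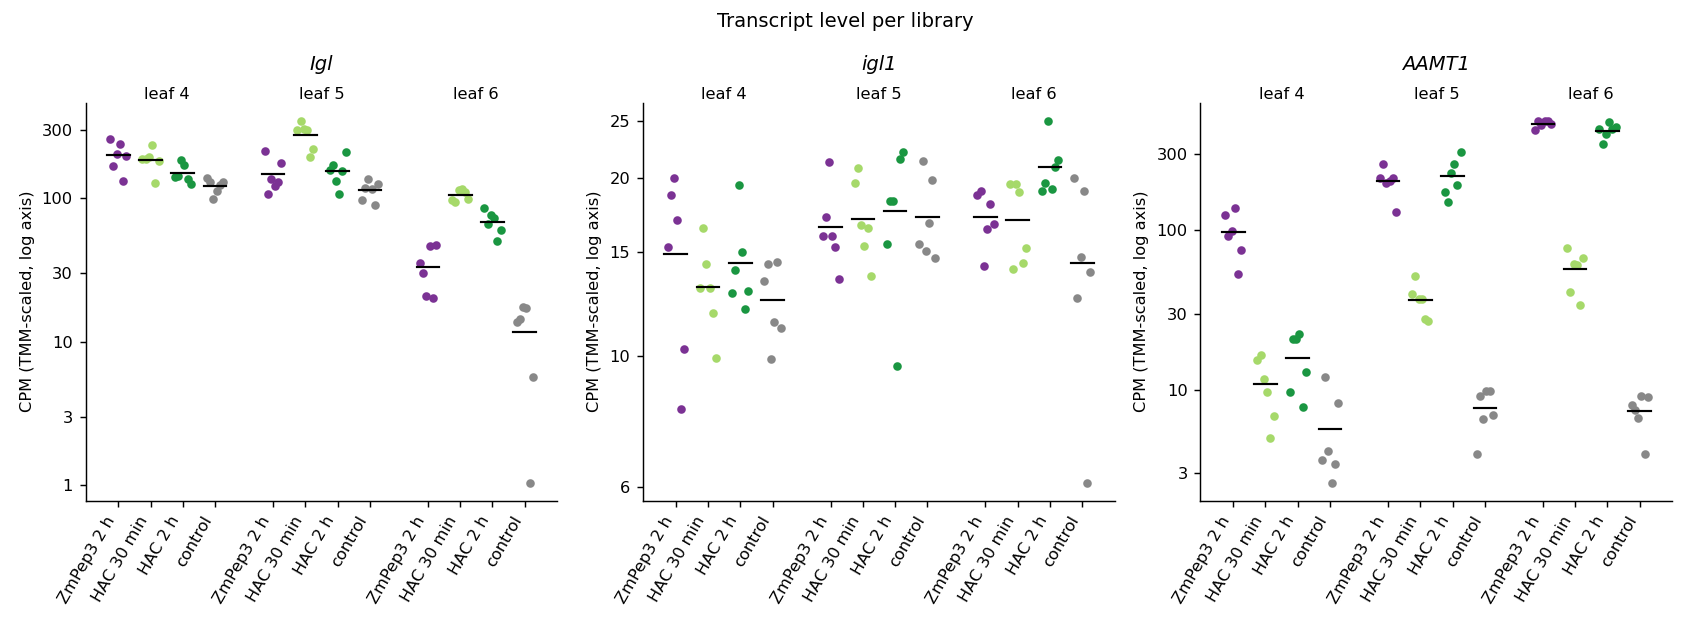
CPM of Igl, igl1 and AAMT1 in each of 72 libraries (points, log axis) with the mean of each group (line), for leaves 4, 5 and 6. Igl in leaf 6 controls lay far below the older leaves, igl1 stayed between 6.1 and 25.03 CPM, and AAMT1 spanned 2.6 to 488 CPM.

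HAC raised Igl within 30 min in both immature leaves. With this treatment, Igl in leaf 6 ran from 93.9 to 116 CPM, with a median of 104, against 1.04 to 17.5 CPM in control, with a median of 14.1. In leaf 5, it ran from 195 to 346 CPM, with a median of 297, against 89.1 to 137 CPM in control, with a median of 116. Treated and control libraries did not overlap in either leaf. The log2 fold change was 3.17 ± 0.27 in leaf 6 and 1.28 ± 0.25 in leaf 5 (adjusted p = 6.36e-15 and 0.000106 by edgeR's quasi-likelihood test). These comparisons called 8.49% and 8.15% of all genes higher.

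In leaf 4, Igl ran from 127 to 234 CPM after 30 min of HAC, with a median of 187, against 99.2 to 138 CPM in control, with a median of 126. Only library 5 of the treated group fell within the control range, but the log2 fold change of 0.61 ± 0.25 did not pass the threshold (adjusted p = 0.18 by edgeR's quasi-likelihood test over all groups). A fit of these 2 groups alone, with the spread of those groups, called it (0.60, adjusted p = 0.012). The treatment called 2.53% of genes higher in leaf 4.

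After 2 h of HAC, Igl was lower than at 30 min in leaf 5 and was not called against control there. It ran from 107 to 209 CPM at 2 h, with a median of 156, against 195 to 346 CPM at 30 min, a log2 difference of -0.83 ± 0.25 (adjusted p = 0.015 by edgeR's quasi-likelihood test, where 15.4% of genes were called). Against control, leaf 5 gave 0.45 ± 0.25 at 2 h (adjusted p = 0.23, 9.59% of genes called higher), and the fit of the 2 groups alone called it (0.47, adjusted p = 0.027). In leaf 6, the 2 h libraries ran from 50.5 to 85.5 CPM, with a median of 69.4, all below the 30 min libraries and all above the controls. The fall by 0.61 ± 0.25 between the times did not pass the threshold (adjusted p = 0.076), although ranges did not overlap, and it was called with a block for the replicate number (-0.64, adjusted p = 0.044). Against control, leaf 6 still stood 2.56 ± 0.27 higher at 2 h (adjusted p = 6.22e-12 by the same test, 13.9% of genes called higher).

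In leaf 4, Igl after 2 h of HAC ran from 125 to 185 CPM, with a median of 142, against 99.2 to 138 CPM in control. The groups overlapped, and the log2 fold change of 0.30 ± 0.25 was not called (adjusted p = 0.63 by edgeR's quasi-likelihood test, 0.923% of genes called higher). Between 2 h and 30 min, leaf 4 gave -0.30 ± 0.25 for Igl (adjusted p = 0.60, 3.6% of genes called).

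ZmPep3 raised Igl in leaves 6 and 4, by less than HAC at 2 h in leaf 6. Leaf 6 had 35.1, 29.8, 20.7, 46.3, 20.1 and 46.7 CPM after ZmPep3, against 13.8, 14.4, 17.5, 17.1, 1.04 and 5.70 CPM in control. The groups did not overlap, and the log2 fold change was 1.51 ± 0.26 (adjusted p = 2.21e-06 by edgeR's quasi-likelihood test). In leaf 4, Igl ran from 131 to 259.9 CPM after ZmPep3, with a median of 199.7, against 99.2 to 138 CPM in control, and rose by 0.71 ± 0.25 on the log2 scale (adjusted p = 0.017 by the same test). In leaf 5, the range of 107 to 213 CPM, with a median of 133, overlapped the controls' 89.1 to 137 CPM, and 0.38 ± 0.25 was not called (adjusted p = 0.22). ZmPep3 called 20.3% of genes higher in leaf 4, 22.4% in leaf 5 and 23.3% in leaf 6. Leaf 5 ZmPep3 libraries 1 and 6 held the highest Igl values of their group, and without them the leaf 5 value was 0.13 (adjusted p = 0.73).

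The size of the leaf 6 changes of Igl rested in part on control libraries 5 and 6. Without them, the log2 fold changes were 2.74 at 30 min and 2.13 at 2 h of HAC and 1.08 with ZmPep3, and all 3 were still called (adjusted p = 1.89e-16, 6.64e-13 and 1.00e-05 by edgeR's quasi-likelihood test). In control library 5, igl1 and AAMT1 were also the lowest of the group, at 6.11 and 3.95 CPM.

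Within each treatment, leaf 6 held less Igl than the older leaves. After 30 min of HAC, the log2 difference was -0.82 ± 0.25 for leaf 6 over leaf 4 and -1.40 ± 0.25 for leaf 6 over leaf 5 (adjusted p = 0.0031 and 6.25e-06 by edgeR's quasi-likelihood test, with 70.5% and 44.3% of genes called). After 2 h of HAC these were -1.13 ± 0.25 and -1.18 ± 0.25, and after ZmPep3 -2.59 ± 0.27 and -2.15 ± 0.26 (adjusted p of at most 0.000105, where 70.9%, 44.3%, 70.4% and 43.5% of genes were called). Ranges did not overlap in any of these 6 comparisons. Between the older leaves, leaf 5 over leaf 4 gave 0.58 ± 0.25 after 30 min of HAC (adjusted p = 0.046, 54.6% of genes called), a call lost without leaf 4 HAC 30 min libraries 5 and 6 (0.43, adjusted p = 0.20). With ZmPep3, leaf 5 over leaf 4 gave -0.44 ± 0.25 (adjusted p = 0.13), and -0.69 without leaf 5 ZmPep3 libraries 1 and 6 (adjusted p = 0.037). In the order of the 12 group means of Igl, leaf 5 after 30 min of HAC came first at 276 ± 57.1 CPM (SD, n = 6). The next 8 means ran from 199.7 CPM in leaf 4 with ZmPep3 to 105 CPM in leaf 6 given HAC for 30 min. Within these 8, no mean differed from the next by more than the larger SD. Leaf 6 after 2 h of HAC (68.5 ± 12.5 CPM), with ZmPep3 (33.1 ± 11.8 CPM) and in control (11.6 ± 6.70 CPM) came last, each apart from the next.

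The neighbouring gene igl1 was called in 1 of 9 treatment comparisons, against 13.9% of all genes called higher in the contrast concerned and 0.923% to 23.3% over the 9. Its 12 group means lay between 20.9 ± 2.3 CPM in leaf 6 after 2 h of HAC and 12.4 ± 1.9 CPM in leaf 4 control (SD, n = 6 each), and no mean differed from its neighbour in the order by more than the larger SD. In leaf 6, igl1 had 19.03, 19.7, 25.03, 19.1, 20.9 and 21.5 CPM after 2 h of HAC, against 20.002, 12.6, 14.7, 19.03, 6.11 and 13.9 CPM in control. The ranges met at control libraries 1 and 4, and the log2 fold change was 0.54 ± 0.18 (adjusted p = 0.017 by edgeR's quasi-likelihood test). Without leaf 6 control library 5 it was 0.38 and no longer called (adjusted p = 0.088), nor was it without libraries 5 and 6 (0.33, adjusted p = 0.19).

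**Figure D2:**
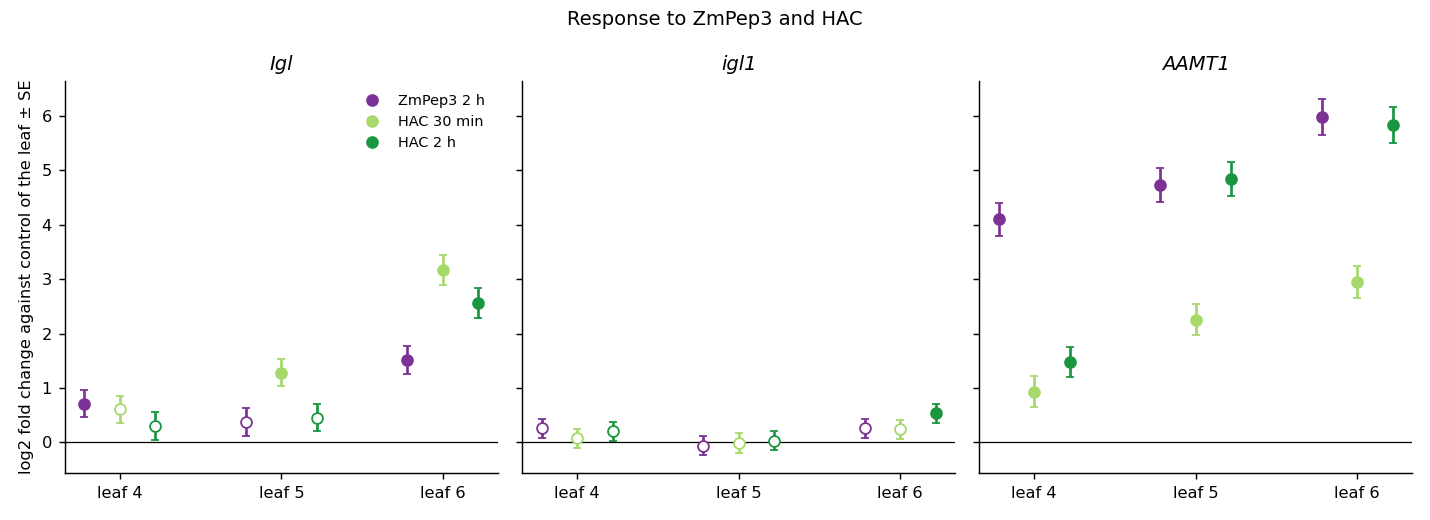
Log2 fold change against the control of the same leaf (points, bars ± SE) for ZmPep3 and HAC in leaves 4, 5 and 6. Filled points passed an adjusted p of 0.05. Igl was highest in leaf 6 after 30 min of HAC (3.17), and AAMT1 reached 5.98 in leaf 6 with ZmPep3. For igl1 the values ran from -0.06 to 0.54, the last in leaf 6 after 2 h of HAC and its only call.

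AAMT1 rose in all 9 treatment comparisons, against 0.923% to 23.3% of all genes called higher in each. In leaf 6, AAMT1 ran from 33.9 to 77.7 CPM after 30 min of HAC, with a median of 61.0, against 4.0 to 9.2 CPM in control. In leaf 5, it ran from 27.02 to 51.4 CPM, with a median of 37.0, against 3.9 to 9.8 CPM in control. Neither pair of ranges overlapped, and the log2 fold changes were 2.95 ± 0.29 and 2.26 ± 0.28 (adjusted p = 9.33e-13 and 3.52e-09 by edgeR's quasi-likelihood test).

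At 2 h of HAC, AAMT1 had climbed further in the immature leaves, while Igl had not. Leaf 6 then had 434, 350, 403, 478, 435 and 444 CPM, and leaf 5 ran from 150 to 311 CPM with a median of 211. All of these lay above every 30 min library of the same leaf. The log2 difference of 2 h over 30 min was 2.90 ± 0.28 in leaf 6 and 2.58 ± 0.28 in leaf 5 (adjusted p = 8.22e-13 and 6.43e-11 by edgeR's quasi-likelihood test, where 20.6% and 15.4% of genes were called). Against control, the 2 h changes were 5.84 ± 0.33 in leaf 6 and 4.84 ± 0.31 in leaf 5, or 57.3-fold and 28.6-fold (adjusted p = 6.43e-23 and 2.59e-19 by the same test).

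In leaf 4, HAC moved AAMT1 by far less. It had 15.3, 16.5, 11.7, 9.6, 5.0 and 6.8 CPM after 30 min and 9.7, 20.9, 20.8, 22.5, 7.8 and 12.97 CPM after 2 h, against 3.6, 12.0, 4.1, 2.6, 3.4 and 8.2 CPM in control. Both treated ranges overlapped the controls, through control libraries 2 and 6. The log2 fold change was 0.93 ± 0.28 at 30 min and 1.48 ± 0.28 at 2 h (adjusted p = 0.038 and 0.0021 by edgeR's quasi-likelihood test). The call at 30 min was lost in 7 of 12 fits that left out 1 library (0.78 to 1.30), and in a fit of the 2 groups alone both were lost (adjusted p = 0.30 and 0.15). Control library 2 held the highest value, and without it the 30 min change was 1.30. Between 2 h and 30 min, leaf 4 gave 0.54 ± 0.27 (adjusted p = 0.31).

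ZmPep3 raised AAMT1 in leaf 4 as well as in the immature leaves. Leaf 4 had 124, 92.5, 98.8, 138, 53.4 and 75.5 CPM after ZmPep3, against 2.6 to 12.0 CPM in control. Leaf 5 ran from 130 to 262 CPM, with a median of 209.5, and leaf 6 from 425 to 488 CPM, with a median of 476, against at most 9.8 CPM in their controls. No treated library overlapped its controls. The log2 fold change was 4.10 ± 0.31 in leaf 4, 4.73 ± 0.31 in leaf 5 and 5.98 ± 0.33 in leaf 6 (adjusted p = 1.76e-17, 5.70e-20 and 1.69e-23 by edgeR's quasi-likelihood test).

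Set directly against HAC at 2 h, ZmPep3 gave more AAMT1 in leaf 4 and less Igl in leaf 6. AAMT1 in leaf 4 was higher by 2.62 ± 0.28 on the log2 scale, with 53.4 to 138 CPM after ZmPep3 against 7.8 to 22.5 CPM after HAC (adjusted p = 2.49e-11 by edgeR's quasi-likelihood test, where 31.2% of genes were called). In leaves 6 and 5 the difference was 0.14 ± 0.26 and -0.11 ± 0.26, with overlapping ranges (adjusted p = 0.79 and 0.81). Igl in leaf 6 was 1.05 ± 0.25 lower, with 20.1 to 46.7 CPM after ZmPep3 against 50.5 to 85.5 CPM after HAC (-1.05, adjusted p = 0.0013 by the same test, 19.3% of genes called). Igl in leaves 5 and 4 gave -0.07 ± 0.25 and 0.41 ± 0.25 (adjusted p = 0.87 and 0.22, 26.2% of genes called in leaf 5). The 2 treatments share the controls of each leaf but not the libraries compared here. Dose and route of the agents were not matched.

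The responses were also set against each other between leaves, as the difference of the log2 fold changes. For AAMT1, the effect of 2 h of HAC was larger in leaf 6 than in leaf 4 by 4.36 ± 0.40 and larger in leaf 5 than in leaf 4 by 3.36 ± 0.40 (adjusted p = 5.48e-13 and 1.59e-08 by edgeR's quasi-likelihood test, with 11.3% and 2.68% of genes called). For Igl, it was larger in leaf 6 than in leaf 4 by 2.26 ± 0.36 and than in leaf 5 by 2.11 ± 0.36 (adjusted p = 3.81e-06 and 0.000197, 1.74% of genes called in the second). Leaves 5 and 4 gave 0.15 ± 0.35 for Igl (adjusted p = 0.92). For AAMT1, leaf 6 over leaf 5 gave 1.00 ± 0.39 and was not called (adjusted p = 0.18).

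At 30 min of HAC, the effect on Igl was larger in leaf 6 than in leaf 4 by 2.57 ± 0.36 and than in leaf 5 by 1.89 ± 0.36 (adjusted p = 4.19e-07 and 0.0061 by edgeR's quasi-likelihood test, with 5.25% and 0.36% of genes called). The second was not called in a fit of its 4 groups alone (1.88, adjusted p = 0.21), and without leaf 6 control libraries 5 and 6 it was 1.45 (adjusted p = 0.0040). These are differences on the log2 scale. As mean CPM, Igl went from 11.6 in control to 105 in leaf 6, and from 113 to 276 in leaf 5. The effect on AAMT1 was larger in leaf 6 than in leaf 4 by 2.01 ± 0.39 (adjusted p = 0.000237). In leaf 5 over leaf 4 it was 1.32 ± 0.39 (adjusted p = 0.043, 3.16% of genes called), and this call was lost in 12 of 24 fits without 1 library and without leaf 4 HAC 30 min libraries 5 and 6 (1.03, adjusted p = 0.19).

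For ZmPep3, 1 difference between leaves was called, that of AAMT1 in leaf 6 over leaf 4, at 1.88 ± 0.39 (adjusted p = 0.000244 by edgeR's quasi-likelihood test, 18.6% of genes called). Leaf 5 over leaf 4 gave 0.63 ± 0.39 for AAMT1 (adjusted p = 0.36, 7.48% of genes called) and -0.34 ± 0.35 for Igl (adjusted p = 0.64). Leaf 6 over leaf 5 gave 1.25 ± 0.39 for AAMT1 and 1.14 ± 0.36 for Igl, and was not called (adjusted p = 0.071 and 0.079, 2.07% of genes called). With a replicate block both were called (1.30 and 1.18, adjusted p = 0.044 and 0.047), and that of AAMT1 also by DESeq2 and from its groups alone (adjusted p = 0.047 and 0.021). That of Igl was 0.70 without leaf 6 control libraries 5 and 6 (adjusted p = 0.17) and 1.38 without leaf 5 ZmPep3 libraries 1 and 6 (adjusted p = 0.040). For igl1, edgeR's test and DESeq2 each called 0 of 9 such differences, and 1 had an unadjusted p under 0.05. Over all genes, edgeR called 0.36% to 18.6% in these 9 comparisons.

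As levels, AAMT1 after treatment was highest in leaf 6 and lowest in leaf 4. After 2 h of HAC, leaf 6 stood above leaf 5 by 0.95 ± 0.27 and leaf 5 above leaf 4 by 3.80 ± 0.30 on the log2 scale, with no overlap of ranges (adjusted p = 0.0027 and 1.60e-17 by edgeR's quasi-likelihood test, with 44.3% and 54.7% of genes called). After ZmPep3, leaf 6 stood above leaf 5 by 1.198 ± 0.27 and leaf 5 above leaf 4 by 1.07 ± 0.27 (adjusted p = 0.000185 and 0.000543, 55.3% of genes called in the second). The order of the 12 means of AAMT1 ran from 468 ± 24.4 CPM in leaf 6 with ZmPep3 to 5.65 ± 3.67 CPM in leaf 4 control (SD, n = 6 each). From leaf 4 after 2 h of HAC (15.8 CPM) downwards, no mean differed from the next lower mean by more than the larger SD.

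Ratios within a library do not depend on the scaling between libraries, and were taken on FPKM + 0.1 so that genes of different length could be set side by side. They still depend on how reads of Igl and igl1 were divided between similar genes, and the part of that division was not tested. In leaf 6 after 30 min of HAC, Igl stood above igl1, with a mean log2 ratio of 2.61 ± 0.21, against -0.67 ± 1.02 in control (SD, n = 6 each). Without control libraries 5 and 6 the control mean was -0.08 ± 0.36 (SD, n = 4), near equal levels of both genes. The difference was 3.27 (adjusted p = 0.0065, two-sided exact permutation test over 924 splits, whose smallest raw p is 0.00216). At 2 h of HAC it was 2.34 (adjusted p = 0.0065), and with ZmPep3 1.51 (adjusted p = 0.012), by the same exact test. Without leaf 6 control libraries 5 and 6 these were 2.68, 1.75 and 0.92, and all kept an adjusted p of at most 0.043 by the exact permutation test. In the older leaves Igl exceeded igl1 in every group, and 30 min of HAC raised the ratio by 1.28 in leaf 5 and 0.52 in leaf 4 (adjusted p = 0.0065 and 0.012 by the exact permutation test). The other 4 of 9 changes of this ratio did not pass, with adjusted p of 0.052 to 0.26 by the exact test.

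**Figure D3:**
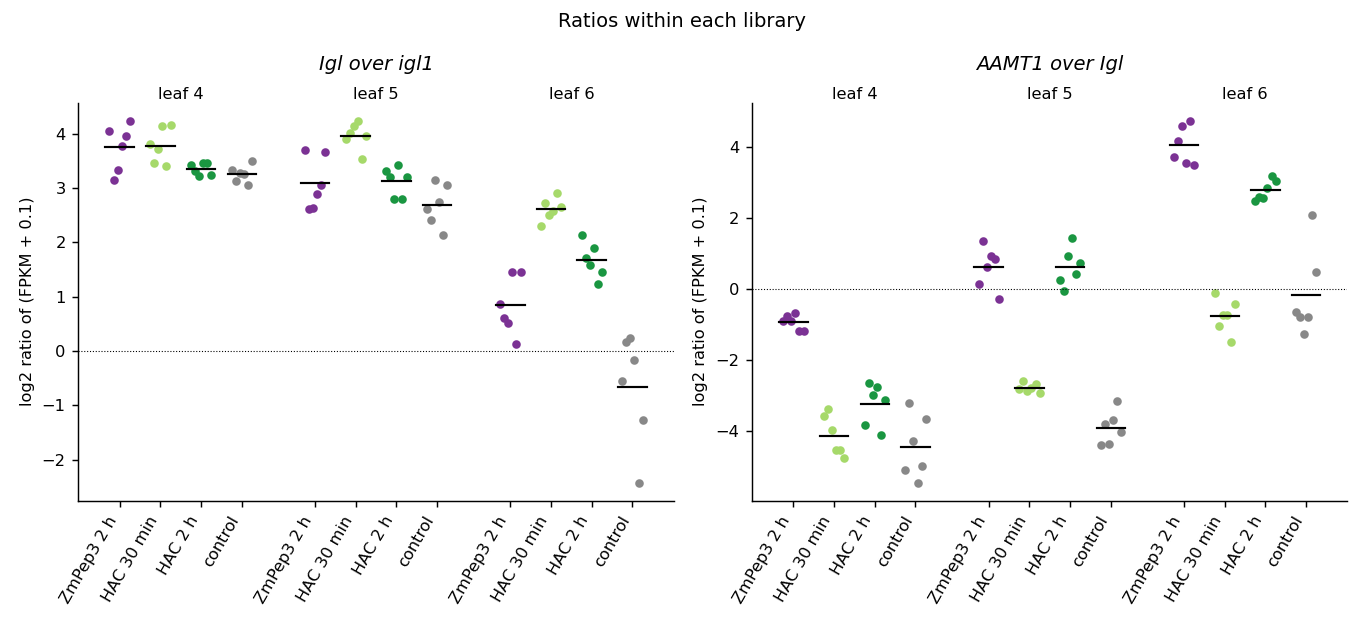
Log2 ratios of (FPKM + 0.1) in each of 72 libraries (points) with group means (lines), for Igl over igl1 and AAMT1 over Igl. The mean of Igl over igl1 was lowest in leaf 6 controls (-0.67, or -0.08 without libraries 5 and 6), and AAMT1 exceeded Igl most in leaf 6 with ZmPep3 (4.03).

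AAMT1 stood above Igl after 2 h of either agent in the immature leaves. In leaf 6 the log2 ratio of AAMT1 over Igl was 2.77 ± 0.29 after 2 h of HAC and 4.03 ± 0.54 with ZmPep3, against -0.16 ± 1.24 in control (SD, n = 6 each). In leaf 5 it was 0.62 ± 0.53 and 0.60 ± 0.59, against -3.91 ± 0.46 in control. All 4 changes, of 2.93 to 4.52, had an adjusted p of 0.0032 by the two-sided exact permutation test. Without leaf 6 control libraries 5 and 6, the control mean in leaf 6 was -0.88 ± 0.27 (SD, n = 4), and the changes there were 3.65 after 2 h of HAC and 4.92 with ZmPep3, in place of 2.93 and 4.20 (adjusted p = 0.0071 for both by the exact permutation test). In leaf 4, Igl remained above AAMT1 even with ZmPep3, at -0.94 ± 0.21 against -4.45 ± 0.88 in control, a change of 3.51 (adjusted p = 0.0032 by the exact test). After 30 min of HAC in leaf 6, the ratio moved by -0.60 (adjusted p = 0.38 by the exact permutation test), and by 0.12 without control libraries 5 and 6.

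Other genes also make or use indole. The enzyme of bx1, a gene on chromosome 4, releases it for benzoxazinoid synthesis, the tryptophan synthase alpha subunit TSA passes it on, and the beta subunits TSB1 and TSB2 build tryptophan from it. The list held bx1, TSB1 and TSB2, and TSA was added to it after its values could be seen. With ZmPep3, 2 of the 3 listed genes were called higher in leaf 4 and 1 of 3 in each of leaves 5 and 6. Their median log2 fold changes were 0.74, 0.19 and -0.10 in leaves 4, 5 and 6. With TSA added, 3 of 4 were called higher in leaf 4 and 2 of 4 in leaves 5 and 6. The medians were then 0.79, 0.34 and 0.30. Over all genes tested, 20.3%, 22.4% and 23.3% were called higher in leaves 4, 5 and 6, with medians of -0.05, -0.06 and -0.02. The rise of TSA measured 0.85, 0.69 and 0.71 in leaves 4, 5 and 6 and that of TSB2 0.92, 0.48 and 0.76, each with an SE of at most 0.14 (adjusted p of at most 0.0039 by edgeR's quasi-likelihood test). TSB1 rose in leaf 4 by 0.74 ± 0.19 (adjusted p = 0.0011), and gave 0.19 in leaf 5 and -0.10 in leaf 6. The change of bx1 was below 0 in each leaf and not called, at -0.38, -0.43 and -0.15 in leaves 4, 5 and 6 (adjusted p of at least 0.43 by the same test).

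After 30 min of HAC, edgeR's test and DESeq2 each called 0 of the 12 comparisons of these 4 genes, and 2 had an unadjusted p under 0.05. Over all genes, edgeR called 2.53%, 8.15% and 8.49% higher in leaves 4, 5 and 6 at that time. At such shares, 0 of 12 is near the rate of all genes. After 2 h, bx1 in leaf 6 was called. In leaf 6, bx1 ran from 48.0 to 70.4 CPM after 2 h of HAC, with a median of 68.1, against 7.6 to 78.4 CPM in control, with a median of 19.4, a log2 fold change of 1.24 ± 0.44 (adjusted p = 0.029 by edgeR's quasi-likelihood test). The ranges overlapped, and without leaf 6 control libraries 5 and 6 the change was 0.93 and not called (adjusted p = 0.17). A fit of the 2 groups alone did not call it either (1.24, adjusted p = 0.099). TSA and TSB2 were higher after ZmPep3 than after HAC at 2 h, by 0.49 to 0.65 and 0.60 to 0.83 over the 3 leaves (adjusted p of at most 0.00084 by edgeR's quasi-likelihood test). In leaf 6, bx1 was lower after ZmPep3 than after HAC, as Igl was, at -1.38 ± 0.44 (adjusted p = 0.017 by the same test). TSB1 gave -0.02 in leaves 5 and 6 and was higher in leaf 4, by 0.58 ± 0.19 (adjusted p = 0.014). A fit of the 2 groups alone did not call this TSB1 difference in leaf 4 (0.58, adjusted p = 0.11).

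**Figure D4:**
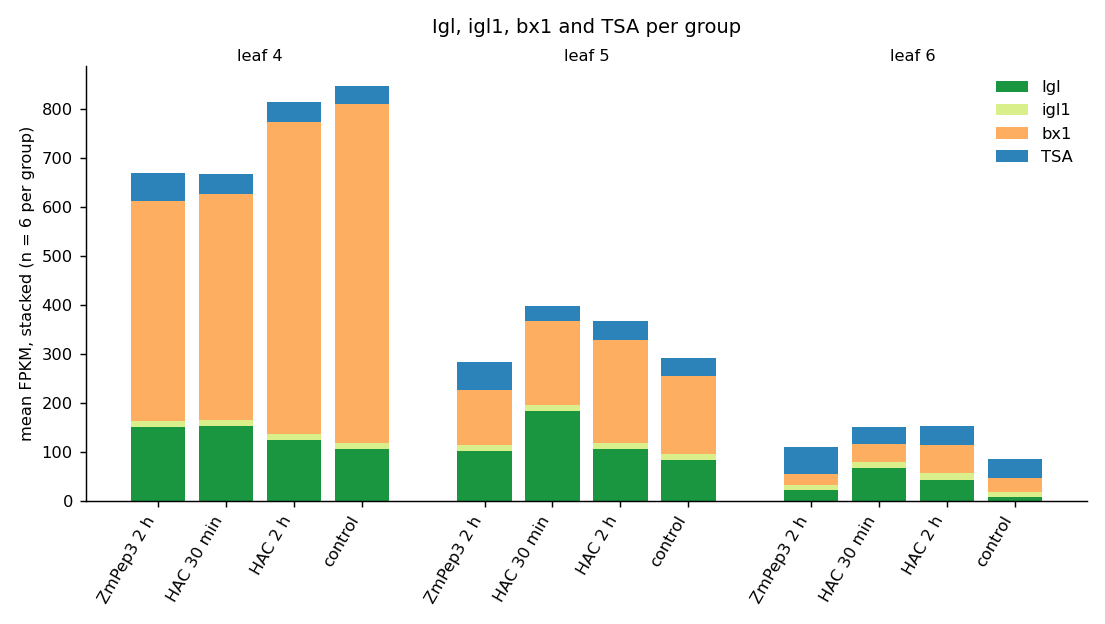
Mean FPKM of Igl, igl1, bx1 and TSA, stacked, in each of 12 groups of 6 libraries. bx1 held most of the sum in leaf 4, and the sum was smallest in leaf 6, at 85.3 FPKM in control.

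On the scale of FPKM, the share of Igl in the sum of Igl, igl1, bx1 and TSA was 45.8% ± 9.9 in leaf 6 after 30 min of HAC, against 9.43% ± 5.56 in control (SD, n = 6 each). In leaf 5 it was 46.2% ± 5.1 after 30 min of HAC, against 30.1% ± 7.4 in control. In leaf 4, bx1 held 79.9% ± 8.2 of the sum in control and Igl 13.9% ± 5.4. The sum itself averaged 845 ± 279 FPKM in leaf 4 controls, 291 ± 101 FPKM in leaf 5 controls and 85.3 ± 33.2 FPKM in leaf 6 controls. The share of igl1 was largest in leaf 6 controls, at 12.2% ± 2.2.

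AAMT2 and AAMT3 carry the same family symbol as AAMT1. Called higher were 1 of these 2 genes in each leaf after 30 min of HAC, both in leaves 5 and 6 and 1 in leaf 4 after 2 h, and both in every leaf with ZmPep3. Over all genes, 2.53% to 8.49% were called higher at 30 min, 0.923% to 13.9% at 2 h of HAC and 20.3% to 23.3% with ZmPep3. In leaf 4 at 30 min, AAMT2 gave 0.64 ± 0.21 (adjusted p = 0.064) and was called by DESeq2, from its groups alone and without HAC libraries 5 and 6 (adjusted p = 0.044, 0.023 and 0.020), the last with a change of 0.80. The gene called at 30 min was AAMT3, whose call was lost in leaf 6 without control libraries 5 and 6 (adjusted p = 0.081) and in leaf 4 from its groups alone (adjusted p = 0.087). After 2 h of HAC, the change of AAMT2 was 2.24 ± 0.22 in leaf 6 and 1.55 ± 0.21 in leaf 5, and that of AAMT3 1.91 ± 0.17 and 1.76 ± 0.17 (adjusted p of at most 4.80e-08 by edgeR's quasi-likelihood test). In leaf 4 the same treatment gave 0.83 ± 0.21 for AAMT2 (adjusted p = 0.025) and 0.49 ± 0.17 for AAMT3 (adjusted p = 0.13). With ZmPep3 the changes ran from 0.85 to 1.45. Both genes were lower after ZmPep3 than after HAC in leaves 6 and 5, at -0.85 and -0.71 for AAMT2 and -0.67 and -0.79 for AAMT3 (adjusted p of at most 0.0078), and higher in leaf 4, at 0.62 and 0.49 (adjusted p = 0.017 and 0.019 by the same test). In leaf 4 controls both stood above AAMT1 on the FPKM scale, at 70.0 ± 13.9 and 48.9 ± 13.2 FPKM, against 5.72 ± 4.01 FPKM for AAMT1. In leaf 6 with ZmPep3 the order was the other way, with 39.9 ± 13.5 and 74.5 ± 11.6 FPKM, against 329 ± 19.0 FPKM for AAMT1.

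**Figure D5:**
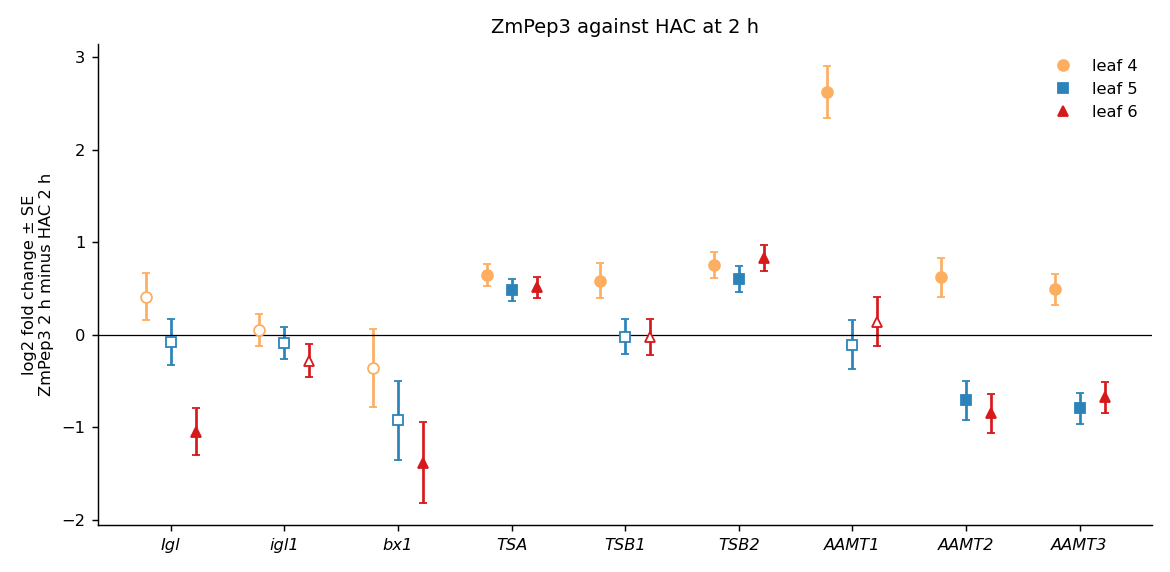
Log2 difference of ZmPep3 over HAC at 2 h (points, bars ± SE) for 9 genes in leaves 4, 5 and 6. Filled symbols passed an adjusted p of 0.05. AAMT1 was higher with ZmPep3 in leaf 4 (2.62), and Igl lower in leaf 6 (-1.05).

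The patterns of the 3 genes over the 72 libraries were unlike each other. Pearson's r of log2 CPM was 0.04 between Igl and AAMT1, 0.17 between Igl and igl1, and 0.49 between AAMT1 and igl1, and over the 12 group means it was 0.02, 0.02 and 0.72. Libraries share groups, so these values describe the data only. The gene most like Igl was LOC103644182, with r of 0.94. It lies on chromosome 1 as well, with 3 genes between it and Igl in the reference order, and its counts were not whole in 72 of 72 libraries either. Its FPKM were 1.31 to 6.23 times those of Igl, with a median of 3.11. Whether reads were divided between it and Igl was not tested. Its log2 fold changes in leaf 6 were 4.01 ± 0.27 at 30 min and 4.22 ± 0.27 at 2 h of HAC and 2.96 ± 0.26 with ZmPep3 (adjusted p of at most 1.53e-15 by edgeR's quasi-likelihood test).

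The genes next in likeness to Igl were WRKY (100147737), with r of 0.85, si486079h08a (100281447), with 0.84, the gene numbered 109939207, with 0.83, and LOC103635119, with 0.82. For AAMT1 they were LOC103626993, with r of 0.97, LOC100285766, with 0.96, LOC100274323, with 0.95, LOC100191473, with 0.95, and LOC100281536, with 0.95. For igl1 the most alike was LOC100193288 with r of 0.61, followed by LOC100383364 with 0.58, and LOC100285105, LOC103636020 and LOC100272866 with 0.57, 0.57 and 0.56.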

How the data were processed

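RNA of 72 leaf samples was sequenced on the DNBSEQ platform, per the labels' protocols. Bowtie2, RSEM and the assembly B73 RefGen_v4 are named in the submitters' processing notes, with no versions. The authors deposited expected counts (RSEM estimates, with no scaling across libraries) and FPKM, in which fragments are scaled to gene length and library size. Of the count values above 0, 11.09% were not whole (tolerance 1e-06). Symbols and gene order, but no coordinates, came from a RefSeq gene table of another assembly, Zm-B73-REFERENCE-NAM-5.0. Members and lists were chosen with earlier results of these data known.

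Expected counts were rounded, filtered with filterByExpr, scaled by TMM and fitted in edgeR 4.0.16 (R 4.3.3) by robust quasi-likelihood, with 1 coefficient for each of 12 groups (common dispersion 0.0631). The 36 contrasts were 9 of treatment, 9 of differences between leaves in an effect, 12 of levels between leaves, 3 of time and 3 of agent. Each contrast had its p-values adjusted by Benjamini-Hochberg across 25558 genes, and 0.05 was the limit for a call. Ratios used two-sided exact permutation tests, adjusted over 9 contrasts per ratio.

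Named genes were the members, the genes of the pathway lists, and for each member the 5 genes with the highest Pearson r of log2 CPM. The gene table holds symbols and no descriptions, so lists were made by symbol, and promoters were not analysed here. TSA, the fold changes of LOC103644182, the ratio tests without leaf 6 control libraries 5 and 6, and the alternatives of genes other than the members were added after seeing the data.

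The procedure was checked with counts simulated for 25091 genes. In the contrast of 2 h of HAC with control in leaf 5, it recovered 78% of 2-fold and 98% of 4-fold rises, with 13 false calls among 187. In the difference between leaves 5 and 4, recovery was 52% and 92%, with 5 false calls among 152. Alternatives were DESeq2 size factors, 2 other filters on low counts, a replicate block, DESeq2 1.42.0, fits of the groups of a contrast alone, fits without named pairs of libraries, each library left out, and other pseudocounts. Fits with 1 library left out kept the scaling and the dispersions of the full fit, and estimated only the quasi-likelihood spread anew. Of 396 pairs of libraries with the same replicate number, 23 had a residual correlation over 0.1 (median 0.0093). These pairs were taken over all groups together, so pairing of leaves within a treatment was not tested. The main fit did not treat the numbers as pairs. Library totals of 26212027 to 31052273 counts set the counting precision. In the main fit, p-values set a difference against the spread between replicates as labelled, estimated over all 12 groups.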

Additional observations from a re-analysis of the deposited data

Results flagged for a closer look

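The effect of a treatment differed between leaves, by edgeR's quasi-likelihood test of the difference itself, in 9 of 27 comparisons of the 3 genes, where 0.36% to 18.6% of all genes were called. For AAMT1 under 2 h of HAC, the log2 fold change was larger in leaf 6 than in leaf 4 by 4.36 and in leaf 5 than in leaf 4 by 3.36. Under 30 min of HAC the same differences were 2.01 and 1.32, and with ZmPep3 the difference of leaf 6 over leaf 4 was 1.88. For Igl under 2 h of HAC, leaf 6 exceeded leaf 4 by 2.26 and leaf 5 by 2.11, and under 30 min of HAC by 2.57 and 1.89. Some of these calls were fragile. The AAMT1 difference of 1.32 lost its call in 12 of 24 fits without 1 library. In fits of their own groups alone, it and the Igl difference of 1.89 were not called. No library was flagged in Igl, igl1 or AAMT1 by Dixon's test in the 36 groups of 6 values looked at, where chance flags about 1 in 20. The test looks for a single extreme value. It can therefore miss low values that occur together, as those of Igl in leaf 6 control libraries 5 and 6 did.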

How the results depend on the processing

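For the treatment effects of the 3 genes and their differences between leaves, 348 values kept direction and call under alternatives other than leaving out 1 library, 8 lost a call, 8 gained one and 5 changed sign. The sign changes were all of values near 0 that were not called. With no filter beyond a total above 0, AAMT1 in leaf 4 after 30 min of HAC was 0.92 (adjusted p = 0.052), igl1 gave 0.0656 for the ZmPep3 effect in leaf 6 over leaf 4 and -0.0077 for ZmPep3 over HAC in leaf 4. With the replicate block, the ZmPep3 effect in leaf 6 over leaf 5 was called for Igl (1.18, adjusted p = 0.047) and AAMT1 (1.30, adjusted p = 0.044), and sign changed for bx1 in leaf 6 with ZmPep3 (0.0084) and for the igl1 difference of leaf 6 over leaf 4 (0.0379). The same AAMT1 difference was called by DESeq2 (1.18, adjusted p = 0.047). DESeq2 size factors and DESeq2 gave 0.0025 and 0.0002 for AAMT1 control levels in leaf 6 over leaf 5, and both 0.0283 for igl1 levels after 30 min of HAC.

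Fitted on the groups of the contrast alone, Igl was called in leaf 4 after 30 min of HAC (0.60), in leaf 5 after 2 h of HAC (0.47) and in leaf 5 with ZmPep3 (0.41, adjusted p = 0.046), as was the ZmPep3 effect on AAMT1 in leaf 6 over leaf 5 (1.18, adjusted p = 0.021). Calls were lost there for AAMT1 in leaf 4 after 30 min (0.93) and 2 h of HAC (1.47), igl1 in leaf 6 after 2 h of HAC (0.54, adjusted p = 0.077), and the 30 min effects on AAMT1 in leaf 5 over leaf 4 (1.34, adjusted p = 0.18) and on Igl in leaf 6 over leaf 5 (1.88). Among other genes, calls were lost for bx1 in leaf 6 after 2 h of HAC, AAMT3 in leaf 4 after 30 min, and TSB1 in leaf 4 for ZmPep3 over HAC. Signs changed for TSA in leaf 6 after 30 min of HAC (-0.0094) and the igl1 ZmPep3 difference of leaf 6 over leaf 4 (0.0673).

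Without leaf 6 control libraries 5 and 6, igl1 in leaf 6 after 2 h of HAC lost its call (0.33). Signs changed for TSA (-0.0078, 30 min), TSB2 (0.0942, HAC 2 h), TSB1 (0.0901 with HAC 2 h and 0.0665 with ZmPep3), the igl1 30 min difference of leaf 6 over leaf 4 (-0.0408), the AAMT1 control level of leaf 6 over leaf 5 (0.0288) and the AAMT1 to Igl ratio at 30 min (0.12). Without leaf 5 ZmPep3 libraries 1 and 6, the ZmPep3 effect on Igl in leaf 6 over leaf 5 was called (1.38, adjusted p = 0.040). Signs changed for igl1 with ZmPep3 (0.0181) and its level in leaf 6 over leaf 5 (-0.0187), and for ZmPep3 over HAC in leaf 5 for AAMT1 (0.0001) and TSB1 (0.0335). Without leaf 4 HAC 30 min libraries 5 and 6, the 30 min effect on AAMT1 in leaf 5 over leaf 4 lost its call (1.03). With a pseudocount of 1 FPKM, the Igl to igl1 ratio in leaf 4 with ZmPep3 passed (0.48, adjusted p = 0.042 by the exact permutation test).

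With 1 library left out at a time, calls were lost for AAMT1 in leaf 4 after 30 min of HAC (0.78 to 1.30), its 30 min effect in leaf 5 over leaf 4 (0.96 to 1.48) and igl1 in leaf 6 after 2 h of HAC (0.38 to 0.65). The ZmPep3 effect in leaf 6 over leaf 5 gained one for AAMT1 without leaf 5 control library 1 (1.13 to 1.39) and for Igl without leaf 6 control library 3 or 4 (0.90 to 1.29). Uncalled igl1 values ran from -0.0015 to 0.14 in leaf 4 after 30 min, -0.0755 to 0.0611 and -0.0481 to 0.15 in leaf 5 after 30 min and 2 h of HAC, -0.14 to 0.0136 in leaf 5 with ZmPep3, and -0.16 to 0.12 for the ZmPep3 difference of leaf 6 over leaf 4. The number of genes called over all genes moved by over 1.5 times in 5 contrasts. Leaf 4 after 2 h of HAC had 431 in the fit over all groups, 689 by DESeq2 and 87 from those groups alone. The 30 min difference of leaf 6 over leaf 4 had 1341 and 889 from its groups alone. Leaf 6 over leaf 5 had 92, 204, 18 and 51 at 30 min and 445, 686, 245 and 275 at 2 h of HAC (over all groups, DESeq2, own groups, without leaf 6 control libraries 5 and 6), and 529 and 335 from its own groups with ZmPep3. The causes were not tested.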
